A study of Mus musculus with 6 samples.

Results

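The genes described here are 10 targets of the hypoxia-inducible factors (HIF) that lie outside glycolysis, namely Ankrd37, Adm, Ndrg1, Pdk1, Ddit4, Kdm3a, Higd1a, Bhlhe40, Hilpda and Ak4. They were chosen by gene symbol as a list of textbook HIF targets, and all 10 were found among the 19938 named genes measured. The choice, like that of every gene list below, was made with earlier results of these data known. Counts set beside the share of all genes are therefore descriptive only. Where the array has several probe sets for a gene, the brightest over the 6 arrays stands for it. The samples were 3 whole fetal livers of Tmod3-/- mouse embryos (KO), which the submitters describe as small and anemic, and 3 whole fetal livers of Tmod3+/+ embryos (WT), described as normal. All embryos were C57BL/6J at E14.5 (embryonic day), each liver came from its own embryo, and 1 Affymetrix mouse whole-transcript gene array was used per liver. Tmod3 encodes tropomodulin 3, a protein that binds actin filaments at their pointed ends. The sources used here do not say which exons the allele removes, and the labels name no cell type to which the loss is limited.

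HIF is a dimer of an oxygen-regulated alpha subunit and ARNT. When oxygen is plentiful, prolyl hydroxylases of the EGLN family mark the alpha subunit for destruction through the VHL protein, and when oxygen is scarce the dimer binds short DNA elements with the core ACGTG or GCGTG and raises the transcription of its targets. Beside the enzymes of glycolysis these targets include proteins that change mitochondrial fuel use, lipid storage, vessel tone, growth signalling and chromatin, and the 10 genes here stand for those arms. In the fetal liver, where red cells are made at this stage, HIF is best known for its part in the control of erythropoietin.

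Of the 10 genes, 0 passed the threshold of an adjusted p under 0.05 in the comparison of KO with WT liver (limma over all genes), while 3 of all genes did (0.015%), each of them lower in KO liver. At an unadjusted p under 0.05, 4 of the 10 genes were higher in KO liver, against 2.59% of all genes, and 0 of the 10 were lower, against 6.44% of all genes. The 4 were Higd1a, Ankrd37, Ddit4 and Hilpda. Higd1a alone had every KO array above every WT array, 1 gene of 10, where 6.14% of all genes showed that pattern, and 0 of the 10 had every KO array below every WT array, as 7.1% of all genes did. With the other Higd1a probe set, the one numbered on the gene's own chromosome, 0 of the 10 genes had every KO array above every WT array. The log2 fold change, always given as KO minus WT, was above 0 for 7 of the 10 genes, against 51.6% of all genes. Its median was 0.22 over the 10 genes and 0.0057 over all genes. The fold changes of the 10 ran from -0.18 for Pdk1 to 0.84 for Higd1a.

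Tmod3 itself read 1.32, 2.36 and 1.30 in KO livers, against 4.49, 4.78 and 4.90 in WT livers, so each array matched its genotype label. The median level of an array was 1.36 to 1.43, on a log scale whose base the sources used here do not state and which was taken as 2. Bright genes, with an average level of 3 or more, had a median log2 fold change of -0.25, so the fold change of each of the 10 genes is given with the median of the 200 genes nearest to it in mean level. Other genes are given without that median unless it is stated. The livers are mixtures of cells, and markers of those cells were read beside the 10 genes. Over 8 erythroid markers, of which 8 had a fold change below 0, the mean level was 4.82 to 5.13 in KO arrays and 5.19 to 5.53 in WT arrays. For 9 hepatocyte markers, 7 of them below 0, it was 6.25 to 7.17 in KO arrays and 7.17 to 7.44 in WT arrays, and for 10 macrophage markers, 8 of them below 0, it was 1.55 to 1.91 in KO arrays and 1.84 to 2.17 in WT arrays. The median log2 fold change was -0.38 for the erythroid, -0.60 for the hepatocyte and -0.19 for the macrophage markers. The like-level medians beside these were -0.22, -0.20 and -0.0015. Of all 19938 genes, 9654 had a fold change below 0. KO replicate 3 was the lowest array for the hepatocyte and for the macrophage markers. Without it the log2 difference between the group means was -0.22 in place of -0.51 for the hepatocyte markers and -0.10 in place of -0.22 for the macrophage markers. The 10 endothelial markers, 2 of them below 0, read 1.80 to 1.96 in KO arrays and 1.71 to 1.81 in WT arrays. The 8 mesenchymal markers, 2 of them below 0, read 2.03 to 2.37 in KO arrays and 1.93 to 2.25 in WT arrays. KO replicate 3 was the highest array for the mesenchymal markers, and without it their log2 difference was -0.01 in place of 0.07. For 6 megakaryocyte markers, 4 of them below 0, the range was 3.35 to 3.55 in KO arrays and 3.60 to 3.71 in WT arrays. For 9 neutrophil markers, 5 of them below 0, the range was 2.34 to 2.87 in KO arrays and 2.44 to 2.72 in WT arrays. The part of these cells in the values of the 10 genes was not tested, and in whole tissue a change in the number of cells of a type and a change in RNA per cell cannot be told apart.

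The promoters of these genes were searched for the core of the HIF element, ACGTG or GCGTG. Sequences are from RefSeq on GRCm38.p6, and 8 of the 10 genes were matched in the promoter table used here. The promoters of Ndrg1 and Bhlhe40 were not analysed here. For each gene the 250 bases before its most upstream listed start were read on both strands. The 4 genes higher at an unadjusted p under 0.05 are shown with Pdk1 and Adm, whose fold changes were below 0. The Higd1a window lies at chr9:121857797-121858046, minus strand, Ankrd37 at chr8:45999851-46000100, minus strand, and Ddit4 at chr10:59951771-59952020, minus strand. The Hilpda window lies at chr6:29272238-29272487, plus strand, Pdk1 at chr2:71872974-71873223, plus strand, and Adm at chr7:110627407-110627656, plus strand. Each is written 5′ to 3′ along its gene, ending at the base before the start, with matches on either strand in capitals, so that a match on the opposite strand appears as CACGT or CACGC.
Higd1a: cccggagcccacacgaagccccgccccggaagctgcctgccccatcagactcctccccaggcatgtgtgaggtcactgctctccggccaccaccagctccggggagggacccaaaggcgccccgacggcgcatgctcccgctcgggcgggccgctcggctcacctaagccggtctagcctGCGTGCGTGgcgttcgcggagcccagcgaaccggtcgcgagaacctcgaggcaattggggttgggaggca
Ankrd37: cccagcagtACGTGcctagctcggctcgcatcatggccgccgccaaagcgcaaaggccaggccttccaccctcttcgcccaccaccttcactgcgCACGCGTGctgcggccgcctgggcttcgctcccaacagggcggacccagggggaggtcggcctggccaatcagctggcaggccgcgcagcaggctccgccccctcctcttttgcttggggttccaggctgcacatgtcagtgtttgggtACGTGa
Ddit4: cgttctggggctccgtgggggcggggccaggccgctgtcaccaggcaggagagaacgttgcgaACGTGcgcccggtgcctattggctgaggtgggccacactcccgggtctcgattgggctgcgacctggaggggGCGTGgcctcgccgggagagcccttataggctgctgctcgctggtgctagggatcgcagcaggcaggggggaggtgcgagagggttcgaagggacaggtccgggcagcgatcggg
Hilpda: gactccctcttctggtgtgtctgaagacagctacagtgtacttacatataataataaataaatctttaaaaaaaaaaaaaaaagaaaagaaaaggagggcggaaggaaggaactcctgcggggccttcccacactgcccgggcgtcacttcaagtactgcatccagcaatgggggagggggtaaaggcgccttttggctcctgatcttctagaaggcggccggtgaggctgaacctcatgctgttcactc
Pdk1: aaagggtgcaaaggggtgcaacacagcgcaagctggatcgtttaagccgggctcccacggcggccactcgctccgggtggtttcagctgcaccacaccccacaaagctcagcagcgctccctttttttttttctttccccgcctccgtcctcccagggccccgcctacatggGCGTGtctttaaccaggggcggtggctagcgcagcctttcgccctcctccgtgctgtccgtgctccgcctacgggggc
Adm: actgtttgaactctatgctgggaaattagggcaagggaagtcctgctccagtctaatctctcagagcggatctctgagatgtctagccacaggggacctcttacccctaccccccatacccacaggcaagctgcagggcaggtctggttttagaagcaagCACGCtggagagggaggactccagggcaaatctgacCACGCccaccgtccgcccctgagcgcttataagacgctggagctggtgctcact

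Ankrd37 had 4 matches, at 6, 152, 155 and 241 bases before the start (counted to the base of the match farthest from it), and the middle pair overlap on opposite strands. Ddit4 had an ACGTG at 187 and a GCGTG at 115 bases before the start. In Higd1a, GCGTG occurs in an overlapping pair, at 70 and 66 bases before the start. Adm and Ak4 also had 2 matches each, and Pdk1 and Kdm3a had 1 each. Hilpda had 0 matches before its most upstream start and 3 before its second listed start. Other listed starts went the other way for Pdk1 and Kdm3a. Pdk1 had 0 matches before its second listed start, and Kdm3a had 0 before each of its later listed starts. Ak4 had 2 before each of its 4 listed starts. Before the most upstream start, 7 of the 8 genes had at least 1 match and 5 had at least 2. Of 27025 promoters of the same length, 38.6% had at least 1 and 16.8% had at least 2. The 27025 include promoters of genes not tested here. Among tested genes the share was higher, with 7251 having at least 1 match and 8363 having none. The windows of the 8 genes hold between 48.4% and 71.2% G and C, and the share was not matched for base composition. None of the 8 windows holds CACGTG, the E-box that contains ACGTG on both strands, which 6.04% of all promoters hold. Over the genes tested, the median log2 fold change was -0.02 for 7251 genes with a match and 0.02 for 8363 without.

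Higd1a encodes a small protein of the inner mitochondrial membrane that acts on the respiratory chain and helps cells to survive low oxygen. It read 4.49, 5.36 and 4.90 in KO livers, against 4.22, 3.87 and 4.14 in WT livers. The groups did not overlap, and KO replicate 2 was the highest array. Mean levels were 4.92 ± 0.44 in KO and 4.08 ± 0.18 in WT liver (SD, n = 3 each). The log2 difference was 0.84 (SE 0.21, 95% interval 0.35 to 1.33), or 1.79-fold (limma unadjusted p = 0.00422, adjusted p = 0.309). The median for genes of like level was -0.31. Higd1a had the 19th highest log2 fold change of all 19938 genes.

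The array carries a further probe set for Higd1a, and it read 3.19, 2.58 and 3.31 in KO livers, against 1.53, 2.63 and 2.34 in WT livers. Here the groups overlapped, as KO replicate 2, the highest array for the brighter probe set, was the lowest KO array and lay below WT replicate 2. The fold change was nevertheless of like size, with a log2 value of 0.86 (limma adjusted p = 0.439 when this probe set stood for the gene). The probe sets also differ in their place. The 20 named probe sets numbered closest to the brighter one all belong to genes on chromosome 3, while Higd1a and the neighbours of the dimmer one lie on chromosome 9. The brighter one is numbered between Gatb and Sh3d19, where the gene table lists 2 pseudogenes, Gm19068 and Gm9790. Whether the brighter probe set also reads a copy of the gene was not tested.

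The related genes Higd2a and Higd1b had log2 fold changes of -0.48 and 0.15, both with overlapping groups (adjusted p = 0.573 and 0.783) and beside like-level medians of -0.23 and 0.05.

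Pdk1 encodes a pyruvate dehydrogenase kinase, which shuts pyruvate out of the citric acid cycle. Its level was 2.76, 3.01 and 2.71 in KO livers, against 2.81, 3.13 and 3.07 in WT livers. The groups overlapped, with WT replicate 1 among the KO arrays. KO minus WT, the log2 value was -0.18 with a 95% interval of -0.48 to 0.12 (limma adjusted p = 0.765), close to the -0.19 of genes of like level. Of 10 further genes of the pyruvate dehydrogenase system, kinases, phosphatases and subunits, 0 had an unadjusted p under 0.05 in either direction, and 4 had a fold change above 0. The lowest unadjusted p values belonged to the subunit genes Dlat, Pdhx, Dld and Pdha1, with log2 fold changes of -0.33, -0.51, -0.22 and -0.27. The other kinase genes, named outside the rule after their values were seen, had log2 fold changes of 0.09 for Pdk2, -0.25 for Pdk3 and -0.03 for Pdk4.

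Ak4 encodes a mitochondrial adenylate kinase, an enzyme that moves phosphate between adenine nucleotides. It read 3.10, 3.50 and 2.91 in KO livers, against 2.84, 3.30 and 3.45 in WT livers. The arrays of the groups were interleaved, and the log2 fold change was -0.03 with a 95% interval of -0.49 to 0.43 (limma adjusted p = 0.981). The median for genes of like level was -0.24. The dimmer Ak4 probe set read 1.31, 1.55 and 1.27 in KO livers, against 1.37, 2.04 and 1.94 in WT livers, with a log2 fold change of -0.41 (limma adjusted p = 0.572). Its groups overlapped only through WT replicate 1, which lay below KO replicate 2. The brighter probe set is numbered between Cdca7 and Sp3os, and 19 of its 20 nearest named neighbours lie on chromosome 2. Between these genes the gene table lists 4 pseudogenes, Eif1-ps3, Pex13-ps, Ak3l2-ps and Hspe1-ps5. The dimmer one is numbered among genes on chromosome 4, where Ak4 lies. Whether the brighter probe set also reads Ak3l2-ps or another of these pseudogenes was not tested. The related kinase gene Ak3 had a log2 fold change of -0.31 (limma unadjusted p = 0.0135, adjusted p = 0.408), beside -0.24 for genes of like level.

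**Figure D1:**
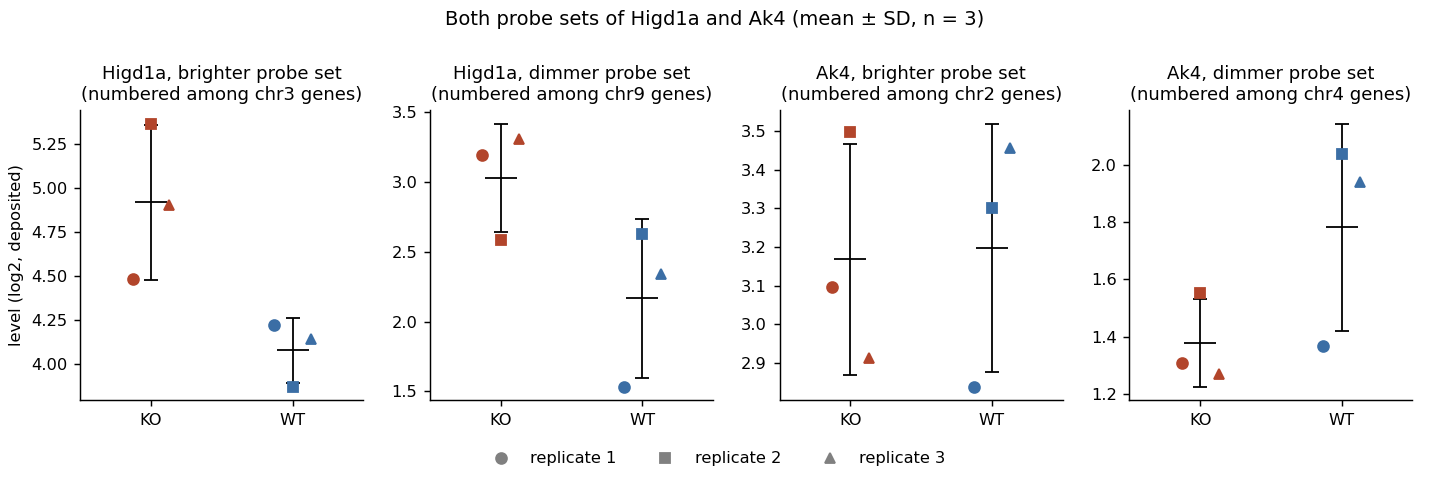
Level on the log2 scale of the brighter and the dimmer probe set of Higd1a and of Ak4 on each array, with the mean and SD of 3 KO and 3 WT arrays. KO replicate 2 is the highest KO array for the brighter Higd1a probe set and the lowest for the dimmer one, and the fold changes of 0.84 and 0.86 are of like size.

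Hilpda encodes a lipid droplet protein that inhibits the triglyceride lipase ATGL, the product of Pnpla2. Its levels were 1.56, 2.04 and 1.77 in KO livers, against 1.58, 1.37 and 1.45 in WT livers. The groups overlapped by a narrow margin, as KO replicate 1 lay just below WT replicate 1. Its log2 fold change was 0.32 with a 95% interval of 0.0012 to 0.64 (limma unadjusted p = 0.0493, adjusted p = 0.552), beside 0.02 for genes of like level. Among 8 genes of lipid droplets and their lipase, 0 were higher and 2 were lower at an unadjusted p under 0.05, where 6.44% of all genes were lower. These were Plin3, a droplet coat protein gene, with a log2 fold change of -0.26, and Abhd5, which encodes the activator of ATGL, with -0.43 (limma adjusted p = 0.476 and 0.527), beside like-level medians of -0.01 and -0.24. Pnpla2 itself had 0.21 and the coat protein gene Plin2 -0.20, and neither had an unadjusted p under 0.05.

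Adm encodes adrenomedullin, a peptide that widens vessels. It read 1.06, 0.98 and 1.0 in KO livers, against 0.94, 1.14 and 1.14 in WT livers. All 6 values lay below the medians of their arrays, near the floor of the measurement, where small changes are not detectable. Its log2 fold change was -0.06 with a 95% interval of -0.30 to 0.18 (limma adjusted p = 0.919), beside 0.05 for genes of like level. Ramp2, which encodes the partner that makes the calcitonin receptor-like receptor respond to adrenomedullin, had a log2 fold change of 0.44, with 1.84, 1.73 and 2.0 in KO livers, against 1.27, 1.60 and 1.37 in WT livers. Its groups did not overlap, and it did not pass over all genes (limma unadjusted p = 0.00778, adjusted p = 0.358). Of the 7 measured genes around adrenomedullin, Ramp2 was the only 1 with an unadjusted p under 0.05.

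Ankrd37 encodes an ankyrin repeat protein. It read 1.99, 2.61 and 2.53 in KO livers, against 1.88, 1.94 and 2.03 in WT livers. KO replicates 2 and 3 lay well above all WT arrays, while KO replicate 1 lay just below WT replicate 3. Between the means the log2 difference was 0.43 (SE 0.17, 95% interval 0.05 to 0.81; limma unadjusted p = 0.032, adjusted p = 0.506), beside -0.09 for genes of like level. Ankrd37 ranked 173rd of all genes by log2 fold change.

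Ndrg1 encodes a cytoplasmic protein linked to differentiation and to Schwann cell maintenance. Its levels were 1.97, 2.27 and 1.60 in KO livers, against 1.78, 1.71 and 1.71 in WT livers. KO replicates 1 and 2 were above all WT arrays and KO replicate 3 was below them, so the KO livers spread far more (SD 0.34) than the WT livers (SD 0.04). Its log2 fold change was 0.21 with a 95% interval of -0.17 to 0.59 (limma adjusted p = 0.778), beside -0.03 for genes of like level. It was 0.05 without KO replicate 2 and 0.39 without KO replicate 3. Its relatives Ndrg2, Ndrg4 and Ndrg3 had 0.33, 0.16 and -0.29, each with overlapping groups.

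Ddit4 encodes REDD1, which restrains the growth kinase mTORC1 through the TSC1-TSC2 complex. It read 1.5, 1.46 and 1.21 in KO livers, against 0.90, 1.22 and 1.06 in WT livers. The groups overlapped only because KO replicate 3 lay just below WT replicate 2, and the 3 WT values and 1 of the KO values were below the medians of their arrays. KO minus WT, this gave a log2 value of 0.33 (SE 0.13, 95% interval 0.04 to 0.62; limma unadjusted p = 0.0315, adjusted p = 0.503), beside 0.05 for genes of like level. Of 10 genes of the mTORC1 brake and related proteins, 0 were higher and 2 were lower at an unadjusted p under 0.05, where 2.59% of all genes were higher and 6.44% lower. Txnip, whose product restrains glucose uptake, had a log2 fold change of -0.58 without overlap between groups (limma unadjusted p = 0.00263, adjusted p = 0.273), and Rheb, the small GTPase that switches mTORC1 on, had -0.48 (adjusted p = 0.520), beside -0.29 for genes of like level.

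Ddit4 is also known as a target of the integrated stress response and of glucocorticoids, and genes of those responses were read beside it. Of 14 genes of the integrated stress response, 0 had an unadjusted p under 0.05 in either direction, and their median log2 fold change was 0.08. Of 10 glucocorticoid-responsive genes, 3 were higher at an unadjusted p under 0.05, against 2.59% of all genes. These were the metallothionein genes Mt2 and Mt1, which also respond to metals, with 1.04 and 1.05, and Fkbp5, a chaperone gene, with 0.44 (limma adjusted p = 0.229, 0.299 and 0.416). The median of these 10 genes was 0.0085. Of 12 immediate early genes, which rise within minutes of handling a tissue, 0 had an unadjusted p under 0.05, with a median of 0.06. The fold change was above 0 for 11 of the 12, against 51.6% of all genes. Every KO array lay above every WT array for 1 of them and below for 1. The part of handling was not tested.

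Kdm3a encodes a demethylase of histone H3 lysine 9 that uses oxygen. It read 1.81, 2.48 and 1.76 in KO livers, against 1.47, 2.02 and 2.10 in WT livers. KO replicate 2 was the highest array and WT replicate 1 the lowest, with the others mixed. Its log2 fold change was 0.16 with a 95% interval of -0.38 to 0.69 (limma adjusted p = 0.897), beside -0.07 for genes of like level. Its direction turned without KO replicate 2 (-0.08) or without WT replicate 1 (-0.04). Among 8 further histone demethylase genes, 0 had an unadjusted p under 0.05. The X-linked Kdm6a had the smallest p of them, with a log2 fold change of -0.79 (adjusted p = 0.556).

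Bhlhe40 encodes the transcriptional repressor DEC1, a HIF target that also takes part in the circadian clock. Its levels were 1.69, 1.49 and 1.20 in KO livers, against 1.17, 1.21 and 1.31 in WT livers. KO replicates 1 and 2 lay above all WT arrays, and KO replicate 3 lay among them, while 4 of the 6 values were below the medians of their arrays. A log2 fold change of 0.23 resulted, with a 95% interval of -0.08 to 0.55 (limma adjusted p = 0.698), beside 0.05 for genes of like level. It was 0.12 without KO replicate 1 and 0.36 without KO replicate 3. Of 10 other clock genes, 0 had an unadjusted p under 0.05. Cry1, a repressor of the clock, came closest with 0.29 and no overlap between groups (adjusted p = 0.557), and the sister gene Bhlhe41 had 0.11.

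**Figure D2:**
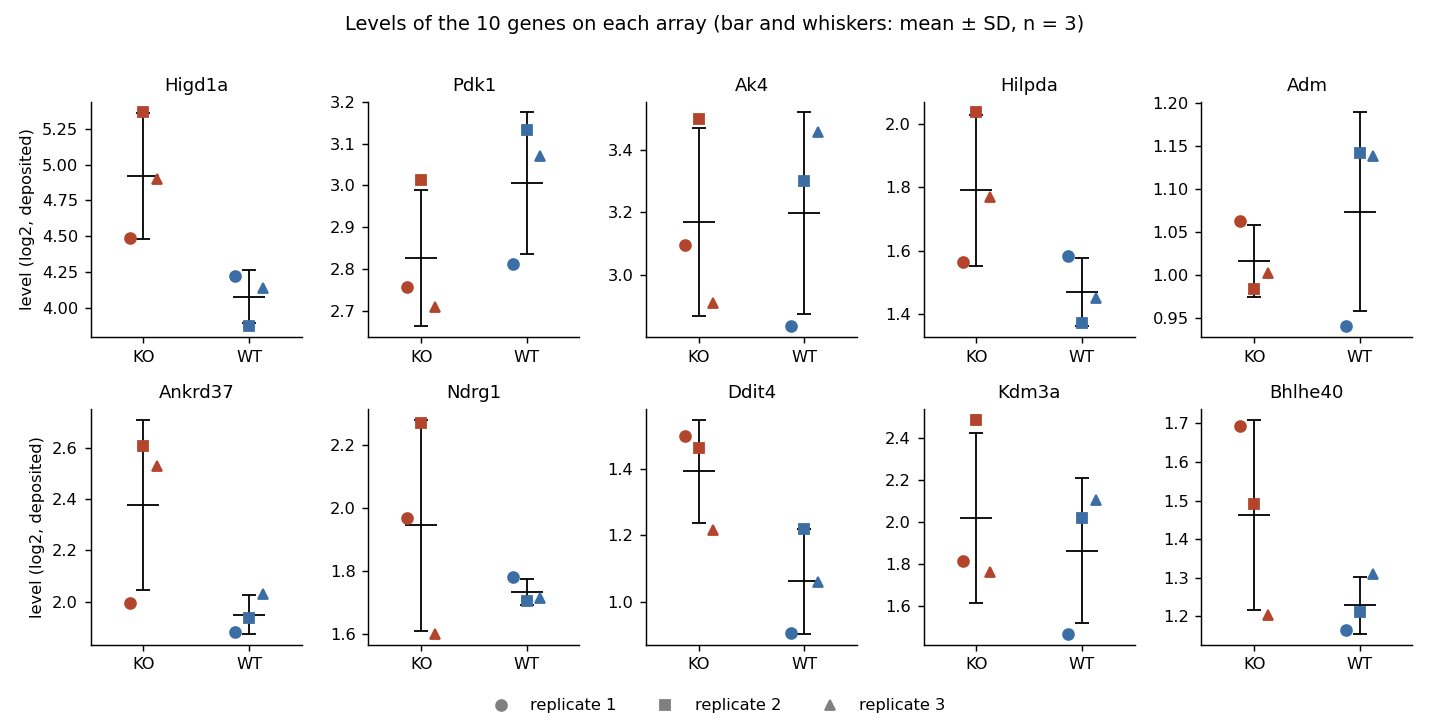
Level on the log2 scale of each of the 10 HIF targets on the 3 KO and 3 WT arrays, with the mean and SD; marker shapes give the replicate number. Only Higd1a has all KO arrays above all WT arrays, which its other probe set does not show, and KO replicate 2 is the highest KO array for 7 of the 10 genes.

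**Figure D3:**
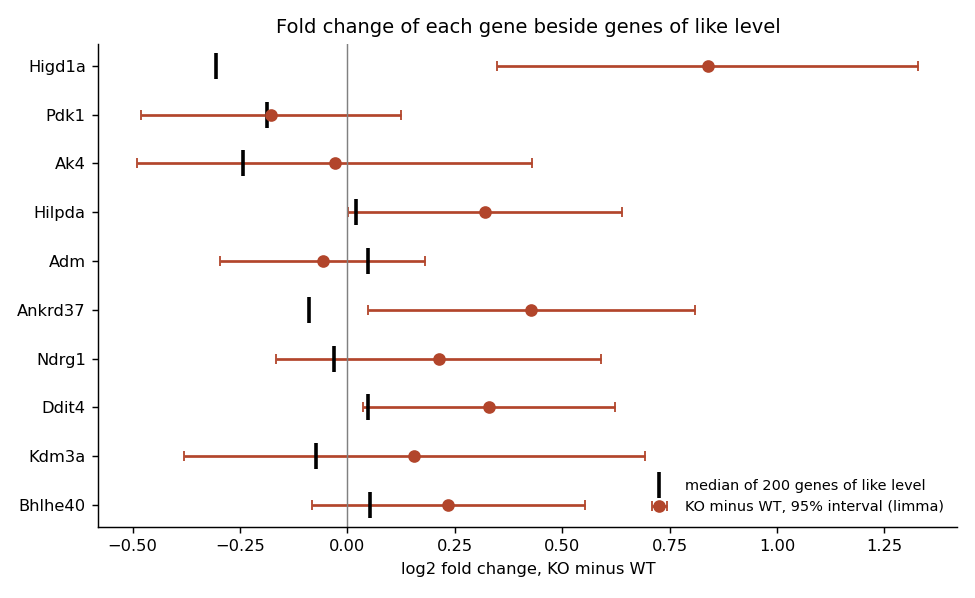
Log2 fold change of each gene, KO minus WT, with its 95% limma interval, and the median of the 200 genes of like level (vertical ticks). The interval lies above 0 for Higd1a, Ankrd37, Ddit4 and Hilpda.

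The KO livers differed among themselves in these genes. KO replicate 2 was the highest of the KO arrays for 7 of the 10 genes, against 30.7% of all genes, and KO replicate 3 for 0 of the 10, against 33.7% of all genes. Among the WT arrays, WT replicate 1 was the lowest for 7 of the 10 genes, against 38.5% of all genes. Averaged over the 10 genes, the level was 2.19, 2.52 and 2.16 in KO livers, against 1.96, 2.09 and 2.15 in WT livers. These means did not overlap, but KO replicate 3 and WT replicate 3 were nearly level. In these arrays the brighter Higd1a probe set read 4.90 and 4.14, and the lack of overlap between the means depended on it. KO replicate 2 also had the highest residual Tmod3 reading of the KO arrays (2.36).

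Without KO replicate 2 the median log2 fold change of the 10 genes was 0.12, and 1 of the 10, Higd1a with 0.62, had an unadjusted p under 0.05. The values without this array were 0.31 for Ankrd37, 0.20 for Hilpda, 0.05 for Ndrg1 and 0.30 for Ddit4. The count of genes higher at an unadjusted p under 0.05 was 2 without WT replicate 1, without WT replicate 2 or without WT replicate 3. With the arrays centred on their medians it was 1, and with quantile normalization applied once more it was 2. The share of all genes at that unadjusted p was not counted under these alternatives. Whether the lower counts concern the 10 genes or genes at large can therefore not be told. Higd1a had an unadjusted p under 0.05 in all 16 alternatives that gave it a value, with adjusted p from 0.117 to 0.843, Ankrd37 in 11 of 16, Hilpda in 7 of 16 and Ddit4 in 7 of 15.

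**Figure D4:**
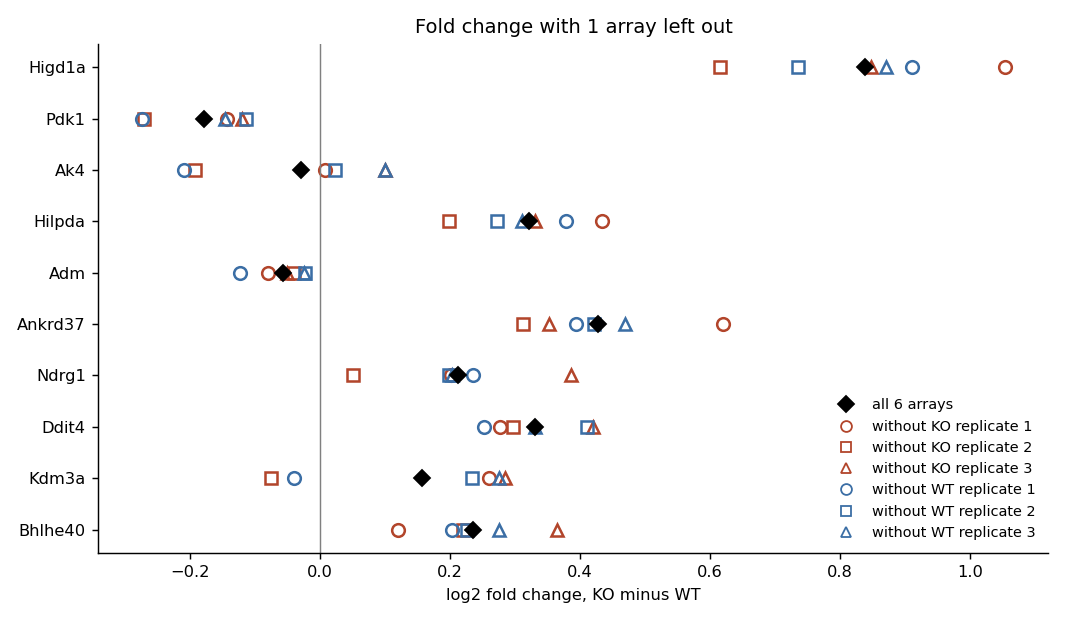
Log2 fold change of each gene, KO minus WT, with all 6 arrays (diamonds) and with 1 array left out (open symbols, KO arrays red and WT arrays blue). Higd1a stays between 0.62 and 1.05, while Kdm3a and Ak4 cross 0.

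Other HIF targets were read from lists of glycolysis genes, of vessel, matrix and secreted factors, and of mitochondrial, glycogen and other genes, 51 in all beside the 10. These lists too were drawn up with earlier results of these data known. Of these 51, 0 passed over all genes (limma). At an unadjusted p under 0.05, 14 were higher (27.5%, against 2.59% of all genes) and 2 lower (3.92%, against 6.44%). Every KO array lay above every WT array for 14 of the 51 (27.5%, against 6.14% of all genes). The median log2 fold change of the 51 was 0.20, close to the 0.22 of the 10 genes. The genes with the highest fold changes, Igfbp1 (2.50), Bnip3 (1.43), Pgk1 (1.32), Aldoa (1.31), Plod2 (1.19) and Ero1a (0.99), all exceeded Higd1a. Those genes encode an insulin-like growth factor binding protein, a mitophagy receptor, 2 glycolytic enzymes, a collagen lysyl hydroxylase and an oxidase of the endoplasmic reticulum. The angiogenic factor gene Vegfa had 0.84, as did Higd1a, with adjusted p values of 0.103 for Vegfa and 0.309 for Higd1a. Fam162a, which encodes a mitochondrial protein of cell death and is another HIF target of mitochondria, had 0.78, with 5.74, 6.33 and 5.65 in KO livers, against 5.34, 4.95 and 5.09 in WT livers. Of the 2 lower at an unadjusted p under 0.05, Tfrc, the transferrin receptor gene, which erythroid cells express strongly, had -0.67, and Insig2, named outside the rule after its value was seen, had -0.56.

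By list, 4 of 16 glycolysis genes were higher at an unadjusted p under 0.05 and 0 lower, with a median log2 fold change of 0.25. Among 15 vessel, matrix and secreted factors 6 were higher and 0 lower, with a median of 0.21. For 20 mitochondrial, glycogen and other targets 4 were higher and 2 lower, and the median was 0.02. Of all genes, 2.59% were higher and 6.44% lower at that threshold. After quantile normalization was applied once more, Plod2 (adjusted p = 0.0172) and Ero1a (0.0234) passed over all genes, and after cyclic loess Plod2 (0.0189), Ero1a (0.0275) and Aldoa (0.0472). None of the 10 genes passed under any alternative.

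Over all genes, 2.59% were higher and 6.44% lower at an unadjusted p under 0.05. Among 12 genes of HIF subunits, cofactors and oxygen sensors, 2 were higher and 0 lower at that threshold. Both encode prolyl hydroxylases that are themselves HIF targets. Egln1 read 2.68, 2.82 and 2.48 in KO livers, against 2.07, 1.76 and 2.41 in WT livers, a log2 fold change of 0.58 (limma adjusted p = 0.379). Egln3 read 1.30, 2.57 and 1.83 in KO livers, against 1.22, 1.09 and 1.23 in WT livers. KO replicate 2 was again the highest, while KO replicate 1 and all WT values lay below the medians of their arrays. The log2 fold change of Egln3 was 0.72 (limma adjusted p = 0.501). The transcripts of the alpha subunits had log2 fold changes of -0.11 for Hif1a, -0.20 for Epas1 and -0.28 for Hif3a, each with overlapping groups. Hif1a and Epas1 were named outside the rule after their values were seen. Epo, the erythropoietin gene, likewise outside the rule, read 1.29, 0.97 and 1.18 in KO livers, against 1.24, 0.98 and 0.96 in WT livers, at the floor of the measurement.

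Across the 63 measured relatives and partners of the 10 genes, 1 was higher (1.59%, against 2.59% of all genes) and 5 were lower (7.94%, against 6.44% of all genes) at an unadjusted p under 0.05. Their median log2 fold change was 0.0049, against 0.22 for the 10 genes themselves. The difference between the lists was not tested.

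**Figure D5:**
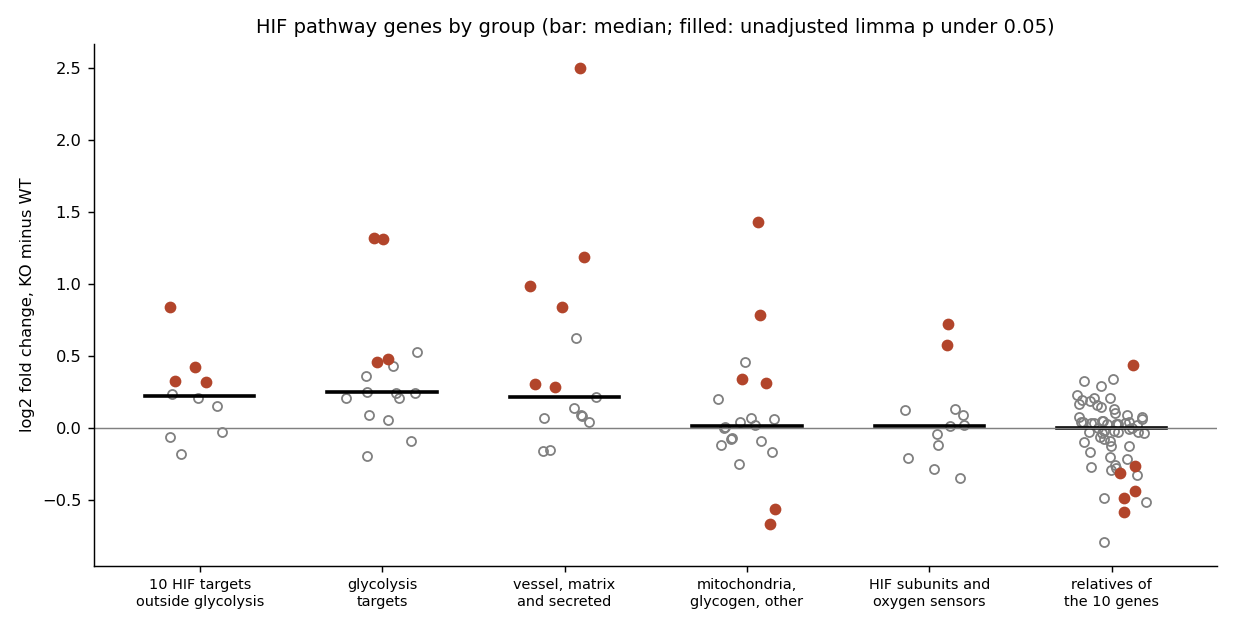
Log2 fold change, KO minus WT, of each gene in the 10 HIF targets, 3 lists of other HIF targets, HIF subunits and oxygen sensors, and relatives of the 10 genes; bars are medians and filled points have an unadjusted limma p under 0.05. The medians are 0.22, 0.25, 0.21, 0.02, 0.02 and 0.0049 from left to right.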

How the data were processed

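Total RNA of 6 fetal livers was hybridised to 6 arrays. The deposited values, 1 per probe set and array, were made by the authors with the RMA method, per the submitters' processing notes, which name no version. The deposited values are taken as log2, since the authors used RMA and since with base e the highest value of every array would exceed what a scanner can record. No label or header states the base, and the arrays' median levels, 1.36 to 1.43, are lower than RMA usually gives, so this reading stays uncertain and linear folds rest on it. Arrays have no read depth, and their number limits the precision. Of 28853 probe sets, 21789 had exactly 1 gene symbol in the platform annotation and were reduced to the one with the highest mean per gene, 19938 genes. The test was limma 3.58.1 (R 4.3.3), using lmFit and eBayes without trend or covariates, two-sided. Its p-values were adjusted by Benjamini-Hochberg over the 19938 genes, and the threshold was 0.05. The p-values of the 3 against 3 embryos are limma's. The test was also run on simulated data with the means and spreads of the real values. It called 71.8% of genes changed by a log2 of 1 and 97.4% of those changed by 2. Of the genes called there, 5.17% were false. The 10 genes and all lists were chosen with earlier results of these data known. Named are Tmod3, the 10 genes and up to 4 genes of each list by smallest p, and other genes where so stated. Correlations between arrays were 0.974 to 0.990, and none was a duplicate. Alternatives were a replicate block, each array left out, 3 other normalizations, other handling of probe sets, a filter on dim genes, trend with robust fitting, array weights and a threshold of 0.1. The dimmer probe set for Higd1a and Ak4 was an alternative chosen after seeing the data.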

Additional observations from a re-analysis of the deposited data

How the results depend on the processing

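Of the 157 fold changes of the 10 genes under the alternatives, 9 had another sign than with the deposited values and all arrays, all for Ak4, Kdm3a and Pdk1, which did not pass. Ak4 turned to 0.17 after quantile normalization once more and 0.17 after cyclic loess, and lay between -0.21 and 0.10 with 1 array left out. Kdm3a ranged from -0.076 to 0.28 with 1 array left out. Pdk1 was 0.0019 after cyclic loess. No member passed the adjusted threshold under any alternative (limma). The number higher at an unadjusted p under 0.05 was 4, and it ranged from 1 to 4 with 1 array left out. It was 2 after quantile normalization once more and among genes above the median level, and 1 after centring on array medians. The filter to genes above the median level removed 3 of the 10, Adm, Ddit4 and Bhlhe40, so Ddit4 was not tested there. The share of all genes at that unadjusted p was not counted under these alternatives, and the causes were not tested. Genes lower past the threshold numbered 3, and 0 to 94 with 1 array left out, 94 being without WT replicate 1, and 10 with array weights. Genes higher past it numbered 0, and 0 to 1 with 1 array left out, 3 after quantile normalization, 4 after cyclic loess and 1 with array weights. Other pathway genes past it numbered 0, 2 after quantile normalization and 3 after cyclic loess.

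With the replicate number as a replicate block, 0 genes were lower past the threshold and 3 of the 10 members were higher at an unadjusted p under 0.05. The labels do not say whether the numbers pair the samples. Of 3 same-numbered pairs, 1 had deviations correlated over 0.1 (0.11, 0.06 and -0.11). Of the 6 arrays, 3 correlated best with their own number. With 3 arrays per group these correlations cannot decide whether the samples were paired. Adm lay near the floor of the measurement on all 6 arrays, which limits what could be seen of it.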
